A study of Bos taurus with 30 samples.

Results

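Transcripts of 10 genes of uterine hedgehog and progesterone signalling were followed in bovine endometrial cells cultured in a microfluidic device. The genes were the ligand IHH, the receptor genes PTCH1 and SMO, the transcription factor genes GLI1, GLI2 and GLI3, the stromal regulators NR2F2 and HAND2, and the epithelial regulators SOX17 and FOXA2. They were taken by name from both count tables. No measured value entered the rule, but the genes were chosen with earlier results of these data known. All 10 were found among the 27607 genes of the count tables, and each matched 1 Ensembl identifier: ENSBTAG00000008452 for IHH, ENSBTAG00000009903 for PTCH1, ENSBTAG00000013287 for SMO, ENSBTAG00000006631 for GLI1, ENSBTAG00000011682 for GLI2, ENSBTAG00000010671 for GLI3, ENSBTAG00000018007 for NR2F2, ENSBTAG00000044123 for HAND2, ENSBTAG00000005748 for SOX17 and ENSBTAG00000012407 for FOXA2.

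In the uterus of several mammals, progesterone acting through its receptor PGR raises Indian hedgehog in the epithelium, with the factor SOX17 known to act on the gene. The ligand crosses to the stroma, where it binds patched receptors and releases smoothened, which passes the signal to the GLI factors. NR2F2 and HAND2 then act in the stroma, and HAND2 is known to restrain fibroblast growth factors that signal back to the epithelium. FOXA2 is the regulator of the endometrial glands and of their secretions.

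The cells were primary epithelial and stromal cells of cow uteri, taken early in the luteal phase from animals that were not pregnant. Epithelial cells lay in the upper chamber of the device and stromal cells in the lower one, on either side of a porous membrane under flow of medium. Cells were exposed to 5 or 50 mM of glucose, or, in a separate experiment in medium with 5 mM of glucose, to a vehicle control, 1 or 10 ng/mL of insulin. The 10 groups of cell type and dose held 3 replicates each, which gave 12 libraries in the glucose and 18 in the insulin experiment, 15 for each cell type. The cells were enriched fractions and not sorted, and the study's methods name no progesterone among the additions to the medium.

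Between 13493503 and 16647701 reads were counted per library for glucose, and between 8826470 and 13214728 for insulin. Levels are given in CPM, the reads of a gene per 1000000 counted reads of its library. No read at all still allows up to 3, which is 0.34 CPM where depth was lowest and 0.18 CPM where it was highest, with counting error alone considered. CPM is not scaled to gene length, so a gene is compared with itself in other libraries and never with another gene. The epithelial marker KRT18 and the stromal marker VIM did not overlap between the cell types, at 440 to 1788 and 0 to 336 CPM for KRT18 and at 385 to 1015 and 1591 to 4449 CPM for VIM in epithelial and stromal libraries, respectively. One stromal library stood apart in its epithelial markers. At 50 mM glucose, replicate 3 of the stroma held epithelial markers at 69% of the epithelial level of its condition (median of 20 markers), against 0 to 14.9% in the other 14 stromal libraries. Stromal markers in the epithelial libraries were at 1.24 to 16.4% of the stromal level. Replicate 2 of the epithelium at 5 mM glucose also lay far from its group. Its chi-square per gene, a measure of difference beyond sampling noise, was 341 against replicate 1 and 340 against replicate 3. Replicates 1 and 3 were at 86.4 with each other. The 20 epithelial markers summed to 7942 to 15959 CPM in that group, and to at most 9036 CPM in the other epithelial groups. In such bulk samples, fewer cells of a type and less RNA per cell cannot be told apart.

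**Figure D1:**
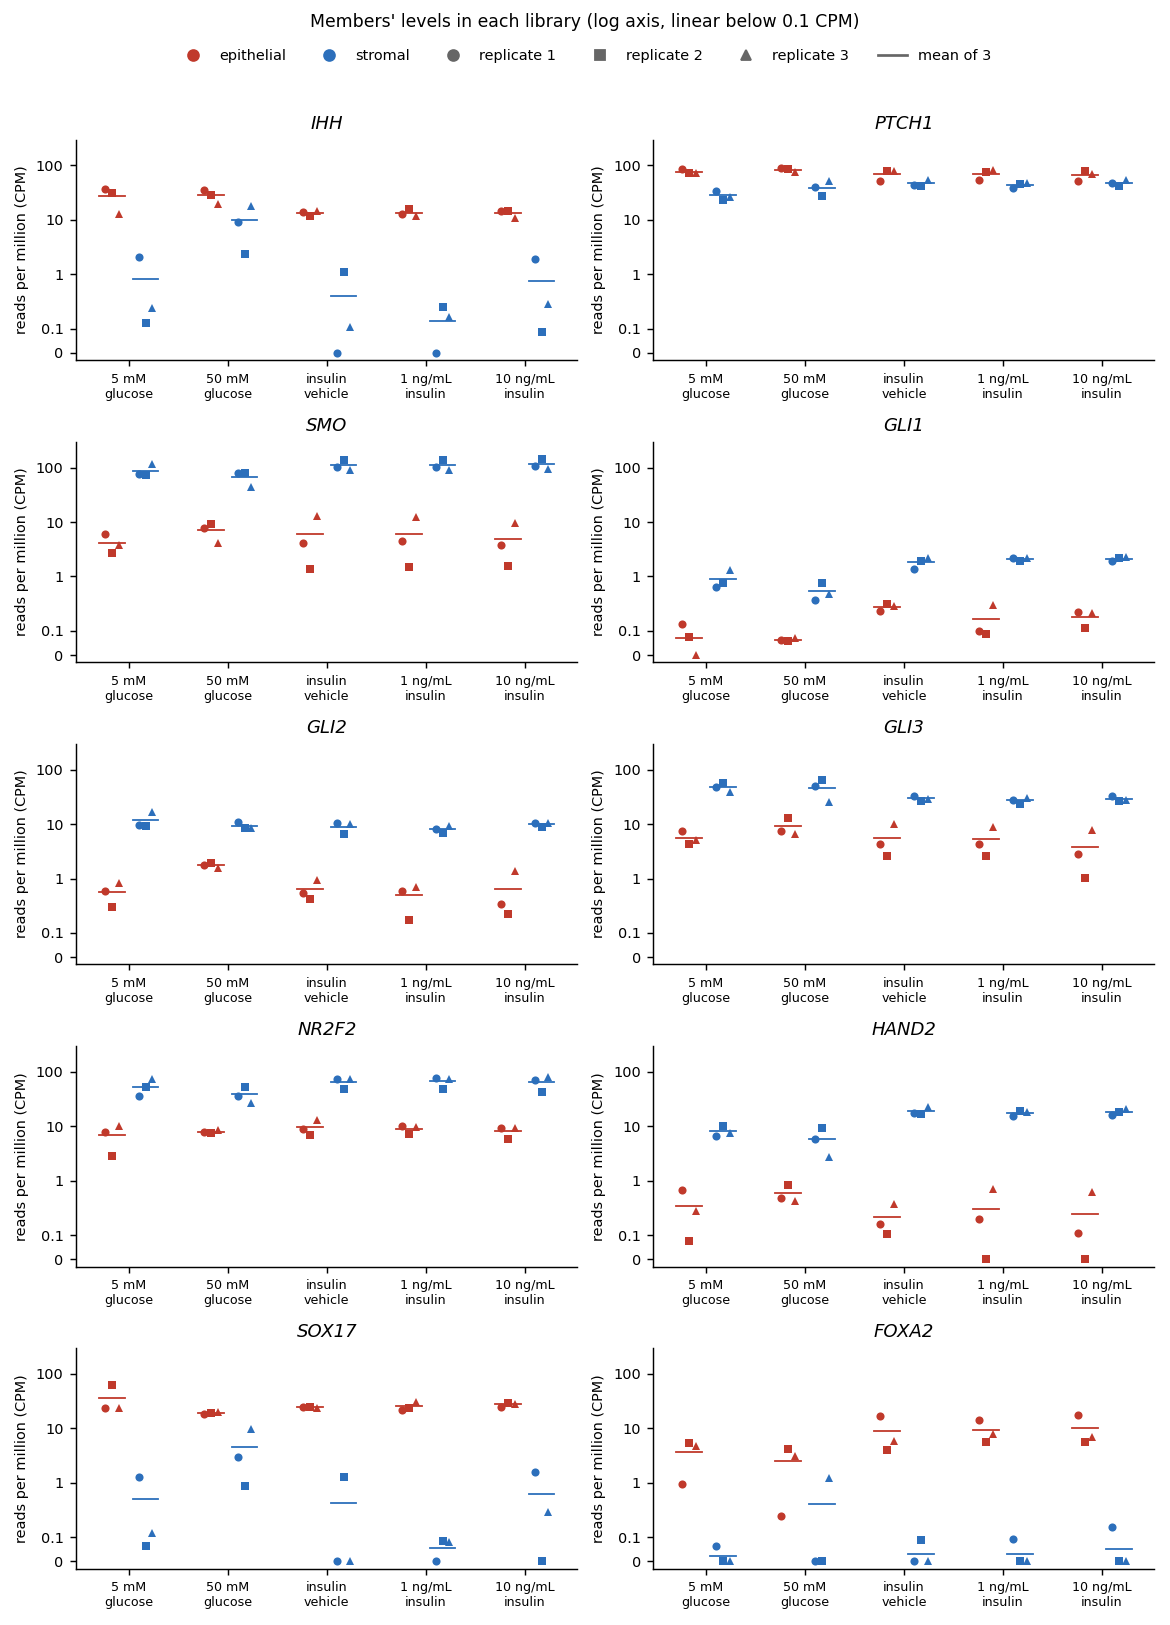
Level of each of the 10 genes in each of the 30 libraries, in CPM on a log axis that is linear below 0.1 CPM, with a short line at the mean of each group of 3. SMO, GLI1, GLI2, GLI3, NR2F2 and HAND2 are higher in every stromal library (blue) than in any epithelial library (red), and SOX17 the reverse, while stromal IHH, SOX17 and FOXA2 range from 0 upwards, with their highest values at 50 mM glucose.

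The genes were divided between the chambers. IHH, SOX17 and FOXA2 were epithelial, SMO, the 3 GLI genes, NR2F2 and HAND2 were stromal, and PTCH1 was read in both cell types with a modest excess in the epithelium. To measure this, epithelial libraries were compared with stromal libraries in each of the 5 conditions with edgeR's quasi-likelihood test, with replicate number as a block. A gene was called when its p-value, adjusted by Benjamini-Hochberg over all genes tested, fell under 0.05 with a log2 fold change beyond 0.1. At 5 mM glucose 9 of 9 testable members were called, where 21.5% of all genes were. At 50 mM it was 6 of 9 (17.6% of all genes). Without replicate 1 it was 0 of 9 there, where 0 of all 13351 genes were called. Without replicate 2 it was 6 of 9 (1962 of 13367 genes), and without replicate 3 it was 8 of 8 (3785 of 13338 genes). With the insulin vehicle it was 10 of 10 (55.9%), at 1 ng/mL 10 of 10 (59.4%) and at 10 ng/mL 9 of 10 (54.9%). Each of the 44 calls had the same sign for a given gene in every condition in which it was called. The study calls the replicates biological, but nothing in the labels says whether they came from different animals, so the p-values measure the spread between these samples.

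**Figure D2:**
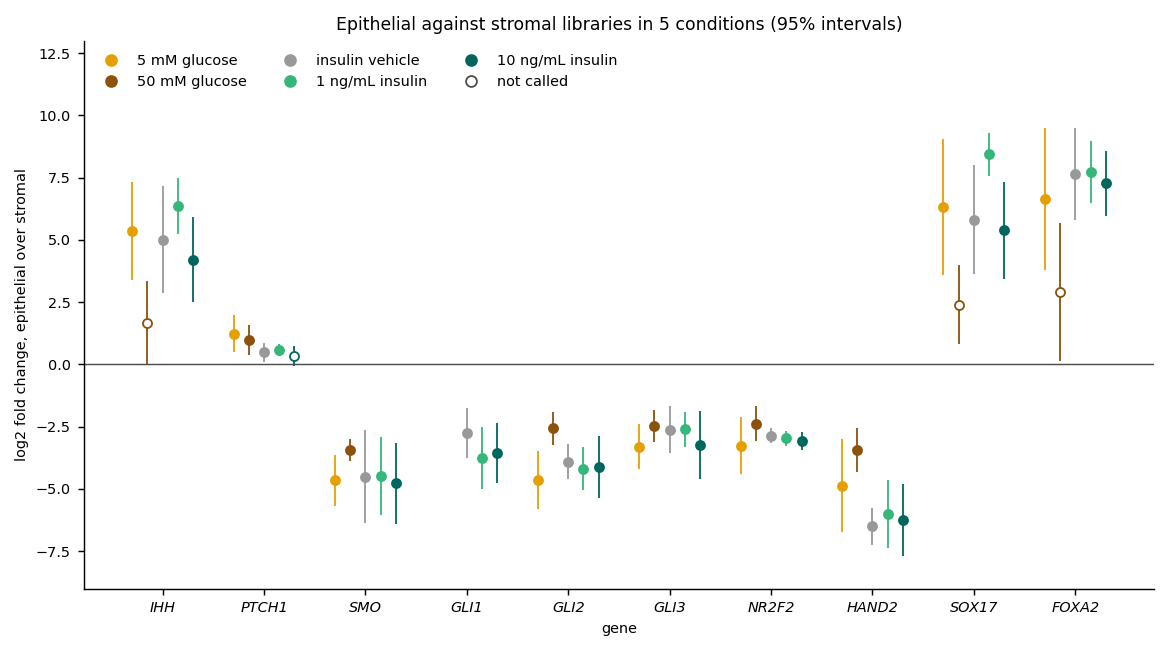
Log2 fold change of each gene between epithelial and stromal libraries, with 95% intervals from edgeR's quasi-likelihood fit, in the 5 conditions (3 epithelial and 3 stromal libraries each). Filled points were called and open points were not, and values above 0 are higher in epithelium. The open points are IHH, SOX17 and FOXA2 at 50 mM glucose and PTCH1 at 10 ng/mL insulin, and GLI1 has no points for glucose because its counts were too low to test.

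IHH, the hedgehog ligand of the uterine epithelium, was read in all 15 epithelial libraries, at 10.9 to 37.0 CPM (median 14.8). At 5 mM glucose the epithelial libraries held 37.0, 31.6 and 12.9 CPM and the stromal ones 2.09, 0.126 and 0.244 CPM. With the insulin vehicle they held 13.9, 11.7 and 14.8 CPM against 0, 1.09 and 0.108 CPM. The cell types did not overlap in either condition. Epithelial exceeded stromal IHH by 5.35 on the log2 scale (standard error 0.804, adjusted p = 0.00909, edgeR) at 5 mM glucose, 5.01 (0.822, adjusted p = 0.00732) with the vehicle, 6.36 (0.444, adjusted p = 0.000234) at 1 ng/mL and 4.21 (0.654, adjusted p = 0.00661) at 10 ng/mL. Only at 50 mM glucose was it not called, with 1.67 (0.664, adjusted p = 0.137). There the stromal libraries held 9.33, 2.32 and 18.0 CPM against 35.8, 29.1 and 19.8 CPM in epithelium, so that the groups nearly met in replicate 3. Without replicate 3, whose stromal library carried the high epithelial markers, IHH was called at 50 mM with 2.51 (adjusted p = 0.0231).

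PTCH1, which encodes the patched receptor that binds the ligand and is itself a target of the pathway, was well read in both cell types. It was at 51.6 to 90.6 CPM (median 76.0) in epithelial and 23.5 to 54.8 CPM (median 42.6) in stromal libraries, and these ranges overlapped. At 5 mM glucose the 3 epithelial libraries held 85.0, 73.2 and 71.9 CPM and the stromal ones 34.3, 23.5 and 26.7 CPM. The corresponding vehicle values were 52.8, 79.6 and 78.8 CPM and 44.6, 42.0 and 54.8 CPM, which overlapped. In log2 fold change the epithelial excess was 1.24 (standard error 0.306, adjusted p = 0.0361, edgeR) and 0.99 (0.243, adjusted p = 0.0492) at 5 and 50 mM glucose. With insulin it was 0.48 (0.141, adjusted p = 0.0397) for the vehicle, 0.57 (0.0965, adjusted p = 0.00447) at 1 ng/mL and 0.34 (0.156, adjusted p = 0.127) at 10 ng/mL, where the interval ran from -0.07 to 0.75. Apart from the call at 1 ng/mL, these calls lay close to the threshold. The call at 1 ng/mL was kept whichever replicate was left out, with adjusted p = 0.0183 to 0.0255 (edgeR). The call at 5 mM was lost without replicate 1 or 3, that at 50 mM without replicate 1 or 2, and that with the vehicle without any 1 of the 3 replicates.

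SMO, which encodes the smoothened transducer that patched holds back, was stromal in every condition. Its levels were 1.34 to 12.7 CPM (median 4.16) in epithelial and 43.7 to 145 CPM (median 94.0) in stromal libraries, without overlap. With the vehicle the stromal libraries held 102, 136 and 91.2 CPM and the epithelial ones 4.16, 1.34 and 12.7 CPM. Relative to stroma, epithelial SMO had log2 fold changes of -4.66 (standard error 0.414, adjusted p = 0.00543, edgeR) and -3.43 (0.179, adjusted p = 0.00159) at 5 and 50 mM glucose, and -4.51 (0.713, adjusted p = 0.00654) with the vehicle. At 1 and 10 ng/mL of insulin it was -4.49 (0.630) and -4.77 (0.620). The vehicle call was lost without replicate 1 (-4.53, adjusted p = 0.0536).

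The GLI genes, which encode the transcription factors at the end of the pathway, were all higher in stroma. GLI3, which acts largely as a repressor when the pathway is off, was at 23.8 to 64.5 CPM (median 30.3) in stromal and 1.02 to 13.2 CPM (median 5.21) in epithelial libraries. GLI2, the main activator, was at 6.61 to 16.9 CPM (median 9.43) against 0.176 to 1.92 CPM (median 0.599). Neither gene's levels overlapped between the cell types. Their log2 fold changes over the 5 conditions were -3.31, -2.47, -2.63, -2.60 and -3.23 for GLI3 and -4.63, -2.55, -3.91, -4.18 and -4.12 for GLI2, in the order of 5 and 50 mM glucose, vehicle, 1 and 10 ng/mL insulin. All of these were called, with standard errors of 0.250 to 0.526.

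GLI1, a target of the pathway that is often read as a gauge of its activity, was near the limit of detection. No library held more than 27 reads of it. Epithelial libraries held 0 to 3 reads each, and stromal libraries 6 to 27. In the insulin experiment the stromal counts were 16, 21 and 20 with the vehicle, 24, 23 and 27 at 1 ng/mL, and 25, 25 and 24 at 10 ng/mL. These exceeded the epithelial ones, with log2 fold changes of -2.75 (standard error 0.378, adjusted p = 0.00444, edgeR), -3.76 (0.501, adjusted p = 0.00189) and -3.57 (0.456, adjusted p = 0.00402), respectively. GLI1 was too low to be tested between the cell types in the glucose experiment. Pooled CPM there was 13.3 times as high in stroma at 5 mM (44 against 3 reads, 95% counting interval 4.26 to 66.8) and 8.38 times as high at 50 mM (24 against 3 reads, 2.54 to 43.5).

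NR2F2, also known as COUP-TFII, is a nuclear receptor that the hedgehog signal is known to raise in uterine stroma. It was at 26.5 to 81.0 CPM (median 52.9) in stromal and 2.89 to 12.9 CPM (median 8.50) in epithelial libraries, without overlap. With the vehicle the stromal libraries held 73.6, 48.3 and 72.7 CPM and the epithelial ones 8.86, 6.92 and 12.9 CPM. The log2 fold changes of the 3 insulin conditions were -2.86 (standard error 0.118), -2.97 (0.119) and -3.08 (0.143), with adjusted p = 0.000899, 5.42e-05 and 0.00124 (edgeR). Those at 5 and 50 mM glucose were -3.26 (0.470, adjusted p = 0.0083) and -2.38 (0.277, adjusted p = 0.00627).

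HAND2, a basic helix-loop-helix factor that is induced by progesterone in the stroma, was nearly confined to stromal libraries. It had 0 to 14 reads per epithelial library, at most 0.841 CPM, and 39 to 226 per stromal library, or 2.69 to 22.2 CPM (median 16.0). The vehicle libraries held 17.6, 16.8 and 22.2 CPM in stroma and 0.157, 0.103 and 0.375 CPM in epithelium. Its log2 fold changes were -4.86 (standard error 0.759, adjusted p = 0.00993, edgeR) and -3.43 (0.349, adjusted p = 0.00427) at 5 and 50 mM glucose, and -6.50 (0.285), -6.02 (0.545) and -6.26 (0.552) in the insulin conditions. With 28 or fewer epithelial reads in a condition, the size of these folds depends on the count added by the fit to avoid zeros.

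The stromal level of HAND2 also differed between the experiments. The 6 stromal glucose libraries held 2.69 to 10.1 CPM (median 6.98) and the 9 stromal insulin libraries 15.6 to 22.2 CPM (median 18.0). GLI1 had the same order, with 0.376 to 1.34 CPM and 1.40 to 2.31 CPM in stroma. The experiments overlapped for the other 8 members in stroma and for all 10 in epithelium. The reference groups of the experiments, 5 mM glucose and the insulin vehicle, also stood in this order. HAND2 was at 6.52, 10.1 and 7.44 CPM in stroma at 5 mM and at 17.6, 16.8 and 22.2 CPM with the vehicle, and GLI1 at 0.652, 0.754 and 1.34 CPM against 1.40, 1.90 and 2.17 CPM. The experiments share no library, and no test was made between them. The share of all genes that stood apart between the experiments was not counted, so this order is not shown to be particular to HAND2 and GLI1.

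SOX17, an endodermal factor that is expressed in uterine epithelium, was at 18.1 to 63.9 CPM (median 24.1) in epithelial and 0 to 9.73 CPM (median 0.122) in stromal libraries, without overlap. At 5 mM glucose the epithelial libraries held 23.3, 63.9 and 23.2 CPM, of which replicate 2 was far above every other epithelial library. With the vehicle they were close together, at 24.8, 24.8 and 23.8 CPM, where the stromal libraries held 0, 14 and 0 reads. The log2 fold change was 6.31 (standard error 1.12, adjusted p = 0.0138, edgeR) at 5 mM glucose, 5.81 (0.834, adjusted p = 0.00499) with the vehicle, 8.45 (0.346, adjusted p = 5.74e-05) at 1 ng/mL and 5.38 (0.741, adjusted p = 0.00486) at 10 ng/mL of insulin. At 1 ng/mL only 2 stromal reads were behind it, against 801 in epithelium, so the ratio of pooled CPM was 445 with a 95% counting interval of 123 to 3679, and the fitted fold depends on the count added by the fit. At 50 mM glucose SOX17 had 18.1, 19.6 and 20.4 CPM in epithelium and 2.94, 0.887 and 9.73 CPM in stroma, and the change of 2.39 (0.634, adjusted p = 0.057) was not called. Without replicate 3 it was called, with 3.21 (adjusted p = 0.0152).

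FOXA2, the gland factor, was low and varied between replicates. In epithelium it had 0.245 to 17.8 CPM (median 5.62), and in stroma 10 of the 15 libraries had no read of it. The vehicle libraries held 16.6, 4.03 and 5.82 CPM in epithelium, and 1 read in all was found in the 3 stromal ones. FOXA2 differed by 6.64 on the log2 scale (standard error 1.16, adjusted p = 0.0133, edgeR) at 5 mM glucose and 7.66 (0.705), 7.74 (0.498) and 7.27 (0.495) in the insulin conditions. Since the stroma held only 1 or 2 reads in each of these conditions, these folds depend on the count added by the fit, and the ratios of pooled CPM were 175 to 315, with counting intervals from 30.9 up to 12499. At 50 mM glucose the stromal libraries held 0, 0 and 18 reads, all 18 in the library with high epithelial markers. The change of 2.90 (1.10, adjusted p = 0.125) was not called there.

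FOXA2 had 14 and 4 reads in the epithelial libraries of replicate 1 at 5 and 50 mM glucose, against 44 to 74 in those of replicates 2 and 3. In the insulin experiment replicate 1 was the highest, with 16.6, 14.0 and 17.8 CPM against 4.03 to 7.86 CPM. Replicate number held 91.0% and 93.8% of the variance of its log2 level in epithelium in the glucose and the insulin experiment, and dose 7.81% and 2.46%. Replicate number also held most of the epithelial variance in the insulin experiment for SMO (98.7%), PTCH1 (94.3%), HAND2 (89.4%), GLI3 (86.1%), GLI2 (77.4%) and NR2F2 (76.4%). Of these, HAND2 had only 0 to 7 reads per library, near the limit of detection. In stroma it held most of the variance for SMO (98.6%), NR2F2 (95.4%), GLI3 (64.6%), HAND2 (63.9%), PTCH1 (62.4%) and GLI2 (61.9%). Over 13708 genes, deviations of same-numbered epithelial insulin libraries from their group means correlated at 0.756 to 0.842. The variance held by replicate number was not computed over all genes, so these values are not shown to be particular to the members. For SMO the order was opposite in the 2 cell types, since replicate 2 was the lowest of the 3 in epithelium (1.34 to 1.59 CPM) and the highest in stroma (136 to 145 CPM) at each insulin dose. Stromal markers in the epithelial insulin libraries were also lowest in replicate 2, at 1.24 to 1.86% of the stromal level, and highest in replicate 3, at 9.49 to 11%. Epithelial SMO was at 1.22 to 1.37% and 8.26 to 11.5% of its stromal level in these replicates. The part of these markers in the epithelial levels of SMO was not tested.

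The stromal reads of IHH and SOX17 moved with epithelial markers. In the 9 stromal libraries with these markers under 3% of the epithelial level, IHH had 0 to 4 reads, SOX17 0 to 3 and FOXA2 0 or 1. In the 6 libraries with markers at 3.45 to 69%, IHH had 12 to 261 reads (7.67 to 63.8% of its epithelial level) and SOX17 13 to 141 reads (3.54 to 50.3%). FOXA2 had 0 to 18 reads in these 6 libraries (median 1), with 0 reads at marker levels of 5.78 and 14.9% and 18 reads at 69%. Replicate 3 of the stroma at 50 mM glucose had IHH at 63.8%, SOX17 at 50.3% and FOXA2 at 49.5%. PTCH1 did not follow this division, with 30.6 to 81.6% in the 9 libraries and 32.3 to 72.2% in the 6. The division mixes the experiments, and stromal PTCH1 was at 30.6 to 60.9% for glucose and 53.4 to 81.6% for insulin. Within each glucose dose PTCH1 ranked with the markers, at 44.8, 30.6 and 34.8% at 5 mM and 46.9, 32.3 and 60.9% at 50 mM. It did not with the vehicle, at 63.4, 59.7 and 77.9%, where replicate 2 had the highest markers. The division at 3% was made after these values were seen, and the part of the markers in the IHH, SOX17, FOXA2 and PTCH1 reads was not tested.

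**Figure D3:**
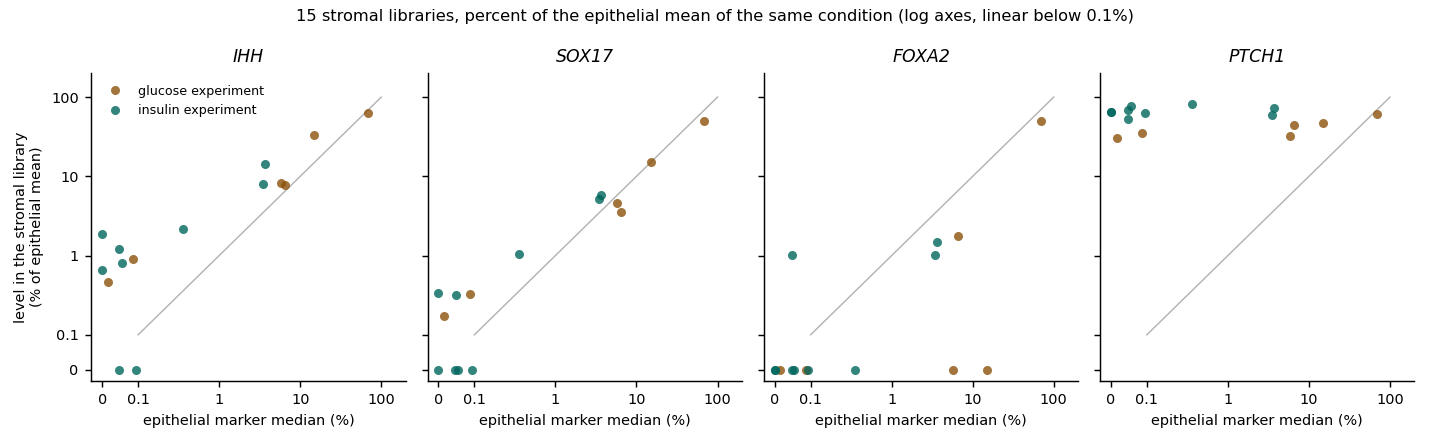
Level of IHH, SOX17, FOXA2 and PTCH1 in each of the 15 stromal libraries against the median level of 20 epithelial markers in the same library, both in percent of the epithelial mean of the same condition, on log axes that are linear below 0.1%. The grey line marks equal percentages. IHH and SOX17 are higher in the libraries with markers above 3%, reaching 63.8% and 50.3% at a marker level of 69%. PTCH1 lies between 30.6% and 60.9% for glucose and between 53.4% and 81.6% for insulin.

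Endothelial cells are another source in which SOX17 and NR2F2 are known to be expressed. The 8 of 10 endothelial markers with a name in these tables summed to 26.1 to 109 CPM for epithelial cells and to 3.87 to 29.1 CPM for stromal cells. Most of this sum in epithelium was VWF, with group means of 20.7 to 51.4 CPM, and EMCN, with 6.67 to 48.5 CPM. The defining marker CDH5 had group means of 0 to 0.0887 CPM in epithelium and 0.398 to 0.655 CPM in stroma. With the vehicle VWF and EMCN were the 2 endothelial markers tested, and both were called higher in epithelium. The part of endothelial cells in the SOX17 and NR2F2 levels was not tested.

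Whether glucose changed the genes was asked by comparing 50 with 5 mM within each cell type. None of the 8 members that could be tested in epithelium and of the 9 in stroma was called, with 0% of all genes called by edgeR in either cell type. At an unadjusted p under 0.05, 1 epithelial and 2 stromal members passed, where 1.54% and 4.96% of all genes did. By DESeq2, 0 epithelial members and 1 stromal member, IHH, were called, where DESeq2 called 0 of all genes in epithelium and 194 in stroma.

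GLI2 was the epithelial member, with a higher level at 50 mM in 3 of 3 pairs. Its reads were 9, 4 and 12 at 5 mM and 29, 32 and 22 at 50 mM, or 0.599, 0.296 and 0.822 CPM against 1.77, 1.92 and 1.54 CPM. The groups did not overlap, as for 5.48% of all genes. GLI2 differed by 1.64 on the log2 scale (95% interval 0.42 to 2.86, adjusted p = 0.804, edgeR), and it did not pass. Stromal markers in the same libraries were at 11.1, 3.18 and 5.29% of their stromal level at 5 mM, then 16.4, 11.1 and 10.3% at 50 mM, with a median log2 change of 0.71 over the 19 tested, 0 of them called. The part of these markers in the GLI2 value was not tested.

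Of the other stromal members, SMO, GLI3 and NR2F2 gave values above 0 in epithelium that did not pass, and GLI1 and HAND2 were too low to be tested. The log2 fold changes were 0.75 for SMO (interval -0.24 to 1.74), 0.64 for GLI3 (-0.31 to 1.59) and 0.34 for NR2F2 (-0.61 to 1.30). The epithelial regulators gave -0.74 for SOX17 (-1.70 to 0.21) and -0.80 for FOXA2 (-1.79 to 0.19), lower at 50 mM in 3 of 3 pairs each, and the SOX17 groups did not overlap. Without replicate 2, whose epithelial SOX17 was 63.9 CPM at 5 mM, no member was called either, where 218 of 13218 genes were called. IHH and PTCH1 gave 0.15 (-0.51 to 0.81) and 0.14 (-0.37 to 0.65). PTCH1 and SMO were higher at 50 mM in 3 of 3 pairs, with groups that overlapped.

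In stroma, IHH and SOX17 were higher at 50 mM in 3 of 3 pairs. The IHH reads were 32, 2 and 4 at 5 mM and 149, 34 and 261 at 50 mM, and the SOX17 reads 20, 1 and 2 against 47, 13 and 141. The IHH groups did not overlap in CPM (6.21% of all genes), and those of SOX17 did. The log2 fold change was 3.78 for IHH (95% interval 1.48 to 6.07, adjusted p = 0.696, edgeR) and 3.18 for SOX17 (0.26 to 6.11, adjusted p = 0.696), and neither passed. Epithelial markers in these libraries went from 6.53, 0.016 and 0.0867% of the epithelial level at 5 mM to 14.9, 5.78 and 69% at 50 mM, with a median log2 change of 4.75 over the 19 tested, 0 of them called. Without replicate 3 the IHH and SOX17 values were 2.54 and 1.65. The 7 other members tested in stroma did not pass, and their log2 fold changes ranged from -0.82 for GLI1 (interval -2.02 to 0.39) to 0.38 for PTCH1 (-0.10 to 0.87). PTCH1 was higher at 50 mM in 3 of 3 pairs, and GLI1 and HAND2 (-0.62, interval -1.60 to 0.36) were lower in 3 of 3 pairs, with groups that overlapped for each of these genes.

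**Figure D4:**
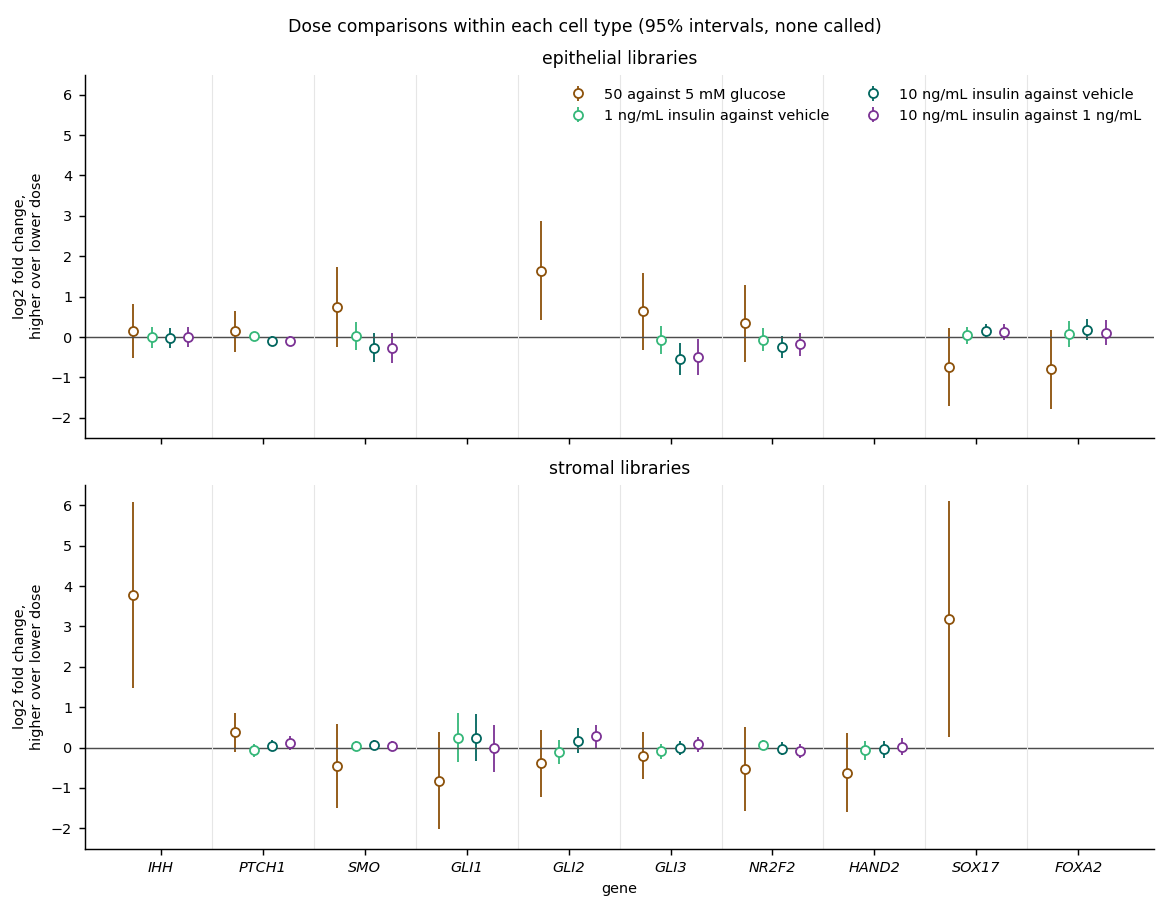
Log2 fold change of each testable gene between doses within epithelial (top) and stromal libraries (bottom), with 95% intervals from edgeR's quasi-likelihood fit. None was called. The intervals that do not include 0 are GLI2 for glucose in epithelium, IHH and SOX17 for glucose in stroma, and GLI3 for 10 ng/mL insulin against the vehicle and against 1 ng/mL in epithelium, and the insulin intervals are narrower than the glucose ones for each gene tested in both.

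Insulin was compared at 1 ng/mL with the vehicle, at 10 ng/mL with the vehicle and at 10 with 1 ng/mL in each cell type. Of 42 tests, 7 members in each of 6 comparisons, 0 were called. Among all genes the called share was 0.113% for 10 ng/mL against the vehicle in epithelium, 0.0244% for 10 against 1 ng/mL in stroma, and 0% in the other 4. DESeq2 also called 0 members in these 6 comparisons. The intervals were narrow for the better read members. In epithelium all IHH intervals lay between -0.27 and 0.25, those of PTCH1 between -0.23 and 0.13, and those of SOX17 between -0.16 and 0.33. In stroma the SMO intervals lay between -0.09 and 0.18, those of NR2F2 between -0.25 and 0.19, those of HAND2 between -0.30 and 0.25 and those of GLI3 between -0.27 and 0.27. Stromal IHH, SOX17 and FOXA2 and epithelial GLI1, GLI2 and HAND2 were too low to be tested.

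GLI3 in epithelium was the only member with an unadjusted p under 0.05 for insulin. Its levels were 4.23, 2.58 and 9.94 CPM with the vehicle, 4.27, 2.55 and 8.95 CPM at 1 ng/mL and 2.78, 1.02 and 7.77 CPM at 10 ng/mL. It was lower at 10 ng/mL in 3 of 3 pairs against either of the other groups, while the groups overlapped because the replicates lay apart. The log2 fold change was -0.55 (95% interval -0.95 to -0.16, adjusted p = 0.515, edgeR) against the vehicle and -0.49 (-0.93 to -0.05, adjusted p = 0.983) against 1 ng/mL. Both comparisons share the 10 ng/mL libraries. Over all genes, 6.78% and 4.29% had an unadjusted p under 0.05. Stromal markers in these epithelial libraries were at 4.46, 1.24 and 10.7% with the vehicle and 4.07, 1.81 and 9.49% at 10 ng/mL. GLI3 in stroma gave -0.01 (-0.20 to 0.17) and 0.08 (-0.10 to 0.27) in these comparisons.

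The remaining epithelial values at 10 ng/mL against the vehicle were small. SOX17, with 25.0, 29.2 and 28.7 CPM against 24.8, 24.8 and 23.8 CPM, was higher in 3 of 3 pairs without overlap (2.72% of all genes did not overlap), by a log2 fold change of 0.16 (interval -0.01 to 0.33, adjusted p = 0.766, edgeR). FOXA2 gave 0.19 (-0.08 to 0.45), NR2F2 -0.24 (-0.52 to 0.04), SMO -0.27 (-0.62 to 0.09) and PTCH1 -0.09 (-0.20 to 0.02). GLI2 in stroma was the stromal member with the lowest unadjusted p for insulin (adjusted p = 1, edgeR), with a log2 change of 0.28 (-0.01 to 0.56) from 1 to 10 ng/mL.

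Whether the cell types responded differently was tested as the epithelial change minus the stromal change in a joint edgeR fit. Of 40 tests of members, 10 in each of 4 comparisons, 0 were called, and the smallest adjusted p was 0.265. DESeq2 called 2, IHH and SOX17 for glucose, where it called 239 of 15668 genes. All genes had 0% called for glucose and for 10 ng/mL against the vehicle, 0.659% for 1 ng/mL against the vehicle and 0.728% for 10 against 1 ng/mL. At an unadjusted p under 0.05 there were 11 member values, from IHH, SOX17, FOXA2, GLI2, GLI3 and SMO, with 4 for glucose (7.65% of all genes) and 1 for 1 ng/mL against the vehicle (6.69%). For glucose the differences were -3.58 for IHH (interval -5.51 to -1.66), -3.84 for SOX17 (-6.32 to -1.35), -4.26 for FOXA2 (-8.17 to -0.34) and 2.02 for GLI2 (0.67 to 3.36), with adjusted p = 0.631, 0.631, 0.65 and 0.631. The epithelial markers in the same fit had a median of -4.62 and the stromal markers of 1.34, with 0 of 20 called in each list. Without replicate 1, IHH (-5.14, adjusted p = 0.00669, edgeR) and SOX17 (-6.39, adjusted p = 0.0057) were called, and without replicate 3 the FOXA2 value was 1.49. Of all 13920 genes, 303 were called without replicate 1, of which 301 had values below 0.

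For insulin the differences largest in size were those of SOX17 and IHH. SOX17 gave 2.77 (0.59 to 4.95, adjusted p = 0.502, edgeR) for 1 ng/mL against the vehicle and -2.99 (-4.90 to -1.07, adjusted p = 0.265) for 10 against 1 ng/mL, and IHH 1.46 (-0.28 to 3.21) and -2.21 (-3.96 to -0.46, adjusted p = 0.492). These comparisons share the 1 ng/mL libraries, in which stromal SOX17 had 0, 1 and 1 reads and stromal IHH 0, 3 and 2. Of the 20 epithelial markers, 15 were called in each of these comparisons, with medians of 4.48 and -4.05. The median marker level in stroma was 0.0937, 3.45 and 0.055% of the epithelial level with the vehicle, 0.047, 0 and 0.048% at 1 ng/mL, and 3.66, 0 and 0.357% at 10 ng/mL. Stromal SOX17 had 14 reads in the vehicle library at 3.45% and 21 in the 10 ng/mL library at 3.66%, and 0 to 3 reads in the other 7. Without those replicates the SOX17 values were -2.04 (without replicate 2, 1 ng/mL against the vehicle) and -0.67 (without replicate 1, 10 against 1 ng/mL), and the IHH value of the latter comparison without replicate 1 was 0.0044. For 10 ng/mL against the vehicle, IHH (-4.47, adjusted p = 0.0379, edgeR) and SOX17 (-6.36, adjusted p = 0.019) were called only without replicate 2, whose stromal vehicle library held the epithelial markers at 3.45%. Of all 13426 genes, 166 were called without that replicate, and all 166 had values below 0. The part of the markers in these differences was not tested.

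SMO and GLI3 gave smaller differences for insulin. The difference for 10 ng/mL against the vehicle was -0.36 for SMO (-0.65 to -0.06, adjusted p = 1, edgeR) and -0.54 for GLI3 (-0.97 to -0.12, adjusted p = 1). For 10 against 1 ng/mL it was -0.33 (-0.65 to -0.01, adjusted p = 0.721) and -0.57 (-1.03 to -0.10, adjusted p = 0.534). For all genes, 4.05% and 6.6% had an unadjusted p under 0.05 in these comparisons.

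Other genes of the pathway were taken from lists by role. Of each list, genes called in all 5 conditions with the largest mean differences are named, and SHH, HHAT, KIF7, SUFU, JAG2 and BMP4 were singled out after their values were seen. The share of all genes called in all 5 conditions was not counted. Among the ligands, receptors and ligand-handling genes, 2 of the 8 tested with the vehicle were higher in epithelium and 5 in stroma, with a median log2 fold change of -2.81 against -0.0022 for all genes, of which 55.9% were called in either direction. The ligand SHH was read at a low level, with group means of 2.26 to 5.50 CPM in epithelium and 0 to 0.52 CPM in stroma, and was called with the vehicle (adjusted p = 0.00222, edgeR), where the stromal libraries held 1 read. HHAT, which adds the lipid to the ligand, was also higher in epithelium with the vehicle (3.37, adjusted p = 0.00755). On the stromal side, BOC, a co-receptor, and SCUBE2 and SCUBE3, which help to release the ligand, were called in all 5 conditions, with mean log2 fold changes of -3.57, -5.41 and -4.77.

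Signal transducers and cilium genes were called on both sides, beside 55.9% of all genes with the vehicle. With the vehicle, 1 of 22 transducers was higher in epithelium and 8 in stroma (median -0.27), and 3 and 7 of 20 genes of the primary cilium, the organelle through which the signal passes (median -0.33). KIF7, which binds the GLI factors at the cilium tip, was higher in stroma with the vehicle (-2.38, adjusted p = 0.00111, edgeR), and SUFU, which holds GLI factors in the cytoplasm, by less (-0.68, adjusted p = 0.0343). GRK3, a kinase of receptors, and PRKACB, a catalytic subunit of protein kinase A, were the only transducers called in all 5 conditions, with mean log2 fold changes of -3.35 and -2.07. No cilium gene was called in all 5.

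With the vehicle 55.9% of all genes were called. Of the 12 hedgehog target genes tested there, 9 were higher in stroma and 1, JAG2, in epithelium, with a median of -2.80. At 50 mM glucose it was 8 and 1 of 13, with -1.93, where 17.6% of all genes were called. In all 5 conditions 8 were higher in stroma, among them SFRP1, a secreted WNT inhibitor (mean -4.49), and FOXF2, a mesenchymal forkhead factor (-4.46). BMP4, a growth factor of the list, had -2.96 with the vehicle (adjusted p = 0.000973, edgeR). None of the target genes was called between doses within a cell type.

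The progesterone pathway list was split between the cell types. With the vehicle, 14 of 44 genes were higher in epithelium and 16 in stroma, with a median of 0.10, beside 55.9% of all genes called. Called in all 5 conditions were 6 epithelial and 10 stromal genes. WNT7A, an epithelial WNT ligand (mean 6.36), FGF9, a growth factor (4.10), and MSX1, a homeobox factor (3.95), led the epithelial genes, and DKK1, a WNT antagonist (-6.99), FGF10, a growth factor, and GATA6, a zinc finger factor (-4.76), the stromal ones. FGF10 had group means of 0 to 0.443 CPM in epithelium and 4.19 to 8.37 CPM in stroma, and no fold is given because 1 epithelial group was at 0. The fitted values of the other genes also depend on the count added by the fit where the lower cell type held few reads. The receptor gene PGR itself was read in all libraries, at 7.20 to 23.2 CPM in epithelium and 11.8 to 40.9 CPM in stroma, and gave -0.70 with the vehicle (standard error 0.153, adjusted p = 0.0169, edgeR) and -0.32 at 5 mM glucose (0.412, adjusted p = 0.641).

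Relatives of the members differed as well. With the vehicle, 5 of 13 FOX, SOX, NR2F and HAND relatives were higher in epithelium and 7 in stroma. Of all genes, 28.2% were called higher in epithelium and 27.8% in stroma there. HAND1 (mean -7.49), TWIST2 (-4.05) and NR2F1 (-3.90) led the 5 relatives that were stromal in all 5 conditions, of which TWIST2 is also among the stromal markers, and SOX9 (4.57) and FOXA3 (2.23) were the 2 epithelial ones. HAND1 and HAND2, and NR2F1 and NR2F2, were on the same side.

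**Figure D5:**
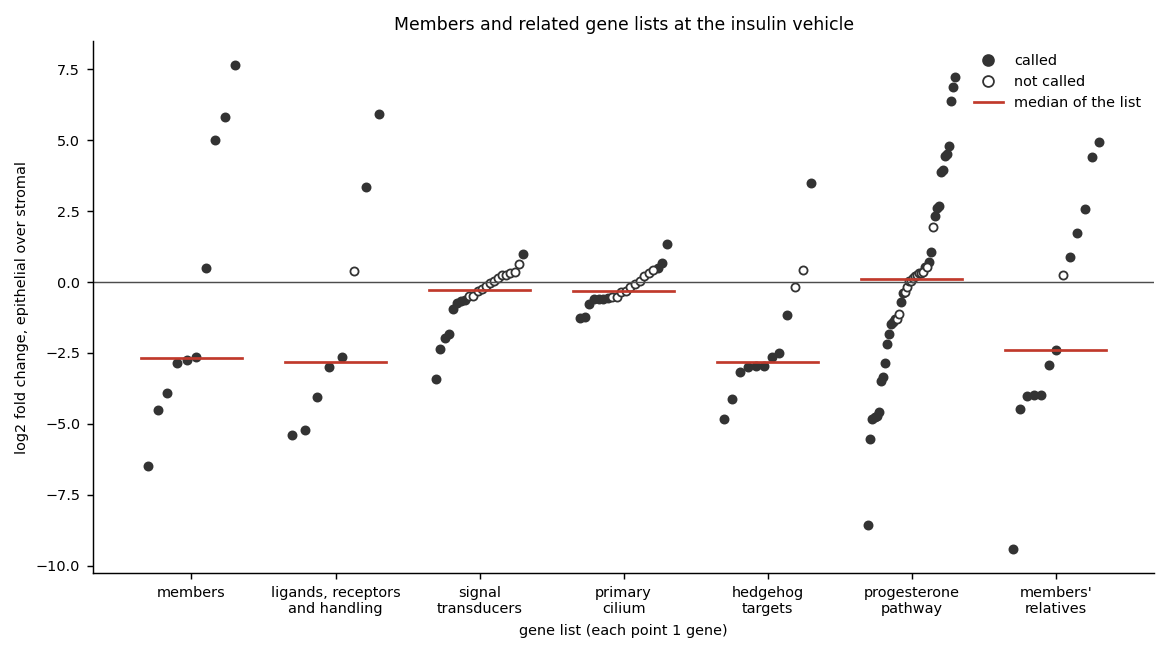
Log2 fold change between epithelial and stromal libraries with the insulin vehicle for the 10 genes and for each tested gene of the 6 related lists, with 1 point for a gene, filled where called, and a red line at the median of the list. Values above 0 are higher in epithelium. Hedgehog ligands and receptors, targets and the members' relatives have medians of -2.81, -2.80 and -2.39, and transducers, cilium and progesterone genes of -0.27, -0.33 and 0.10.

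Over the 8 dose comparisons, 1 gene of these 6 lists was called, namely CEBPB, a factor of the progesterone list, which rose in epithelium from the vehicle to 10 ng/mL insulin by 0.67 on the log2 scale (standard error 0.097, adjusted p = 0.000344, edgeR). It was 1 of 14 genes called in that comparison (0.113% of all genes). By DESeq2 as run here, without the replicate block, or with all libraries in one fit, 0 genes were called there. The study's own DESeq2 test, in a paired design, lists CEBPB among the transcripts altered in epithelium by 10 ng/mL insulin. The study does not state whether the p-values behind that list were adjusted. Why the 2 DESeq2 results for CEBPB differ was not tested. In the differences between cell types, WNT7A and MUC1 were called for 1 ng/mL against the vehicle, and WNT7A, MUC1 and AREG for 10 against 1 ng/mL, in the same comparisons as 15 of the 20 epithelial markers. The values of WNT7A were 4.20 and -4.61.

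For each member, the 3 genes with the most similar pattern over the 30 libraries were found, by the smallest root mean square difference of centred log2(CPM + 0.5) among 14415 genes, passing over genes with no name in these tables. These libraries share 2 cell types and few replicates, so most of the pattern is the difference between cell types. IHH was closest to MYZAP (0.343), DEGS2 (0.383) and RAP1GAP2 (0.414), SOX17 to CAMSAP3 (0.257), PLEKHH1 (0.280) and BSPRY (0.301), and FOXA2, the least matched, to RIMKLA (0.540), DNAH1 (0.541) and SMTNL2 (0.557). PTCH1 was closest to CTTNBP2NL (0.224), DNMT3A (0.230) and RHOF (0.232). SMO was closest to PCOLCE (0.276), ADAMTS2 (0.282) and ZEB2 (0.284). The GLI genes had different neighbours, with CHST10, GOLIM4 and TSPAN4 for GLI1, ZNF569, SLC43A3 and ARMCX1 for GLI2, and MPDZ, PTPRS and NAV1 for GLI3, at 0.241 to 0.323. For NR2F2 they included HOXD8 (0.285) and FZD2 (0.30), and for HAND2 SHANK1, PRKG1 and PTPRM (0.283 to 0.333). With 2 CPM added in place of 0.5, 3 of the 3 genes were kept for PTCH1, 2 for IHH, SMO, GLI2 and SOX17, 1 for GLI3 and 0 for GLI1, NR2F2, HAND2 and FOXA2.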

How the data were processed

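RNA of 15 epithelial and 15 stromal samples was sequenced as stranded libraries on an Illumina NextSeq. The authors trimmed reads with Cutadapt, aligned them with Rsubread to the Ensembl cow genome, kept uniquely mapped reads and counted them per gene with featureCounts, and they deposited these raw counts. The strand setting of the counting is not given in the sources used here. The deposited tables of fold changes and p-values from the authors' own comparisons were used only to pair gene identifiers with names.

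Counts were tested with edgeR 4.0.16 in R 4.3.3, with TMM factors, filterByExpr, the quasi-likelihood fit and Benjamini-Hochberg adjustment over all genes tested. Calls needed an adjusted p under 0.05 and a log2 fold change beyond 0.1, and were counted over protein-coding genes. The study used a paired design, so replicate number entered as a block. Deviations of same-numbered libraries correlated at 0.114 to 0.842 within a cell type and at 0.0331 to 0.524 between cell types. Those of different-numbered libraries reached above the lowest same-numbered value in stroma for glucose (0.284 against 0.193) and for 10 ng/mL against the vehicle (0.182 against 0.114). They also did so between cell types at 5 mM glucose (0.0723 against 0.0331). Differences between cell types were interaction terms with replicate nested in cell type. The test was checked on simulated counts. No 2 libraries of a group agreed within sampling noise (lowest chi-square per gene 17.4).

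Alternatives were other size factors, no filter on low counts, DESeq2 1.42.0, no replicate block, each replicate left out and all libraries in 1 fit. The members and gene lists were chosen with earlier results of these data known. All 10 members were named in every comparison. For each list the named genes were the 3 in each direction with the largest mean change among those called in all 5 cell type comparisons, with PGR added, and for doses the list genes called. For each member the 3 most similar genes were found. A few genes that these rules gave are not reported here. Intervals and limits from counts cover counting error only.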

Additional observations from a re-analysis of the deposited data

Results flagged for a closer look

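The response of SOX17 to 50 against 5 mM glucose had opposite signs in the cell types, being lower in 3 of 3 epithelial pairs and higher in 3 of 3 stromal pairs. The tested difference was -3.84 on the log2 scale and did not pass (adjusted p = 0.631, edgeR).

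The response of GLI1 to 10 ng/mL insulin against the vehicle was also opposite in sign, with 3, 3 and 3 reads with the vehicle and 2, 1 and 2 at 10 ng/mL in epithelium, and 16, 21 and 20 against 25, 25 and 24 reads in stroma. The tested difference was -0.81 (adjusted p = 1, edgeR), and the epithelial side rests on at most 3 reads per library.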

How the results depend on the processing

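Of 383 alternative values for the 48 cell type results of the members, 359 kept direction and side of the threshold, 16 were no longer called, 8 became called and 0 changed sign. Of 124 alternative values for the 16 dose results and differences with an unadjusted p under 0.05, 114 kept both, 7 became called and 3 changed sign. Leaving out 1 replicate moved the members called at 50 mM glucose between cell types from 0 (without replicate 1) to 8, against 6, and those in the differences between cell types from 0 to 2 for glucose (2 without replicate 1) and from 0 to 2 for 10 ng/mL insulin against the vehicle (2 without replicate 2), against 0 in each. DESeq2 called 1 member for glucose in stroma and 2 in the glucose difference, and with no filter on low counts 2 were called in the difference for 10 against 1 ng/mL, against 0. The signs that changed were those of FOXA2 in the glucose difference (-6.72 to 1.49 over the replicates left out), SOX17 in the difference for 1 ng/mL against the vehicle (-2.04 to 3.45) and IHH in that for 10 against 1 ng/mL (-3.31 to 0.0044). The cause was not tested.

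Without the replicate block, the pairing by number, 5 of 9 members were called at 50 mM and 9 of 10 with the vehicle, as PTCH1 was lost in both (adjusted p = 0.0628 and 0.0532, edgeR), and no other member's call changed. Calls over all genes moved more: at 50 mM between cell types they were 2328, and 3497 by DESeq2, 1052 without the block and 0 to 3785 without 1 replicate, and at 5 mM 2856 became 5325 with all libraries in 1 fit. For 10 ng/mL against the vehicle in epithelium 14 became 0 by DESeq2 or without the block and 41 with no filter. In the differences, 88 (1 ng/mL against the vehicle) became 25 and 97 (10 against 1 ng/mL) became 51 by DESeq2, both became 0 without the block, and 0 for glucose became 239 by DESeq2. The 0 for glucose became 303 without replicate 1, and the 0 for 10 ng/mL against the vehicle became 166 without replicate 2. With no filter the 97 became 284. Within cell types, 0 for glucose became 218 in epithelium without replicate 2. In stroma it became 49 without replicate 1 and 194 by DESeq2. Depth limits GLI1, HAND2 and FOXA2 in the cell type with few reads.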
